A study of Mus musculus with 7 samples.

Results

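The genes described here run glycolysis, feed and drain it, answer to low oxygen, or turn glucose into sorbitol, and they were compared in mouse lens epithelium between animals that lack SPARC (KO) and their wild-type (WT) littermates. The list names 35 genes. For each, the brightest probe set with a single gene symbol was taken, by its mean signal over all 7 lenses, and 29 of the 35 genes entered the comparison, of 18193 genes with such a probe set. Gpi1, Eno1, Akr1b3 and Sord had no probe set under their symbol and are not analysed here, so neither gene listed for the polyol pathway itself could be followed. The probe sets of Bnip3l carry several symbols and are not used, and Gapdh could be read only from the control probe sets of the array.

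SPARC is a secreted matricellular glycoprotein that binds collagen IV of the lens capsule. All animals were 28 days old, of 1 litter on a C57Bl/6 background, and the labels name no drug or other treatment. The KO animals were SPARC-null. The KO group held 4 lenses from 3 animals (both lenses of animal 1, called 1L and 1R, and the left lenses 4L and 7L), and the WT group held the left lenses 2L, 5L and 6L of 3 animals. KO animal 7 was male and the other animals were female. Laser capture took the epithelium from stained frozen sections, and each lens gave 1 array after its RNA had gone through a pair of amplification cycles. The number of arrays limits the precision. Lenses 1L and 1R were averaged, so n = 3 animals in each group.

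Glycolysis splits glucose into pyruvate in the cytosol and needs no oxygen. The lens has no blood vessels and lies in a low-oxygen medium, so its cells draw much of their energy from glycolysis and release lactate. In low oxygen the factors HIF-1 alpha and HIF-2 alpha escape hydroxylation by prolyl hydroxylases, bind hypoxia response elements and raise the transcription of glucose transporters, glycolytic enzymes and vascular growth factor. In the polyol pathway aldose reductase turns glucose into sorbitol, which builds up in the lens in diabetes and draws in water.

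Differences between KO and WT were mostly small against the spread between animals, and Slc2a3, a high-affinity glucose transporter, had the largest of the 29, with higher values in KO. In limma, 0 of 29 genes passed an adjusted p of 0.05, where 0.00666% of the 45037 probe sets tested did, and the adjusted p was 0.99988 for each of the 29. At an unadjusted p under 0.05 there was 1 gene, Slc2a3, against 4.06% of all probe sets. Of all probe sets, 2.24% had such a p with higher and 1.81% with lower values in KO. KO and WT lenses did not overlap for 3 of the 29 genes, Slc2a3, Hk2 and Pdk3, against 5.33% of all probe sets. With fewer lenses more probe sets are free of overlap: without KO animal 1 the count was 6 of 29 against 16.5% of all probe sets, and without KO animal 7 it was 5 of 29 against 10.7%. Values were higher in KO for 14 genes and lower for 15, where 45.8% of all 18193 genes were higher. With median centring in place of quantile normalisation 8 of the 29 were higher. The median log2 difference of all probe sets tested moved down too, from -0.01 to -0.07. The median log2 difference, KO minus WT, was -0.02 over the 29 genes and -0.03 over the brightest probe sets of all 18193 genes. The difference stayed within 0.5 on the log2 scale for 26 of the 29 genes (89.7%) and for 85.3% of all genes. For 23 genes the 95% interval of the limma fit lay wholly between -1 and 1, so a difference of a full log2 unit lay outside it. In such samples fewer cells of a type and less RNA per cell cannot be told apart. The intervals of Slc2a3, Ldhb, Pdk3, Slc16a3, Ddit4 and Adm reached past 1 unit.

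**Figure D1:**
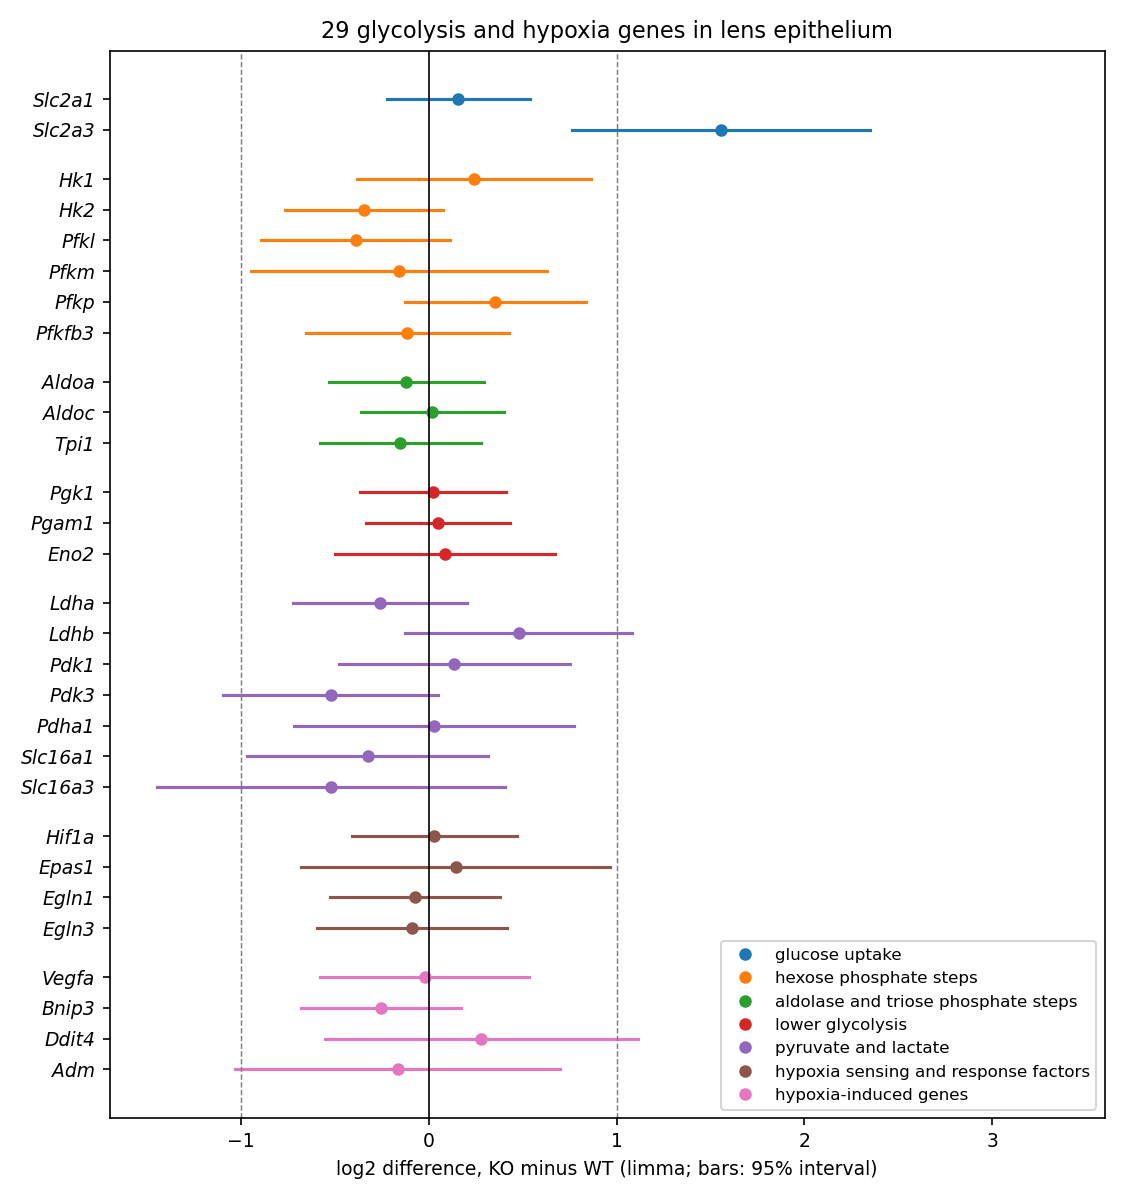
The log2 difference (KO minus WT, horizontal axis) of each of the 29 genes is a point with its 95% interval from limma, coloured by role, and dashed lines mark -1 and 1. Slc2a3 lies at 1.56 with an interval from 0.76 to 2.35, while the other 28 points lie between -0.52 and 0.48.

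The deposited table was checked before the genes were read. Sparc itself gave signals of 8.14 to 70.5 in KO lenses, against 27370.5 to 49971.5 where the gene is intact. Background was read from 27 bacterial control probe sets, whose signals reached at most 45.5. Of the 29 genes, 28 lay above that signal in all 7 lenses, and Slc16a3 lay under it in 7L. Markers of lens epithelium were present, with 10 of 10 above that signal in some lens. Their summed signal lay between 122607 and 149823 in KO lenses, against 88196 to 151081 in WT ones. Cryab, Cryaa and Gja1 gave most of these sums. Foxe3 was weak, with at most 84.1 in any KO lens and 118 in any WT lens. It passed the highest bacterial control in 1 KO lens and 2 WT lenses (log2 difference -1.02, limma unadjusted p = 0.0507, adjusted p = 0.99988). Of the 10 markers, 6 had higher and 4 lower values in KO. Markers of neighbouring tissue were present too, and their part in the values below was not tested. Photoreceptor markers summed to 51722 to 86469 in KO lenses and 48008 to 89028 in WT ones, and skeletal muscle markers to 22148 to 71723 and 12966 to 89357. In the WT lens 2L the 3'-to-5' signal ratio of the Gapdh controls, which is lower where RNA is more intact, was 3.75, against 9.06 to 15.9 in the other lenses. The 29 genes lay higher in 2L, with a median of 0.24 above the mean of the 6 animals on the log2 scale, and between -0.09 and 0.09 in the other 6 lenses.

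Promoter sequences were read for the genes in the comparison, as a description. The RefSeq promoter windows (build GRCm38.p6, 250 bases before to 50 after each start) matched 27 of the 29 genes, and Slc2a3 and Epas1 had no entry. The core of the hypoxia response element was searched as ACGTG and as GCGTG on both strands. Matches can overlap, and CACGTG holds ACGTG on both strands. ACGTG was in 22 of the 38 windows of these genes (57.9%) and in 19.6% of all 32851 windows, and GCGTG in 22 (57.9%) and in 32.4%. Among the 19 genes with ACGTG in a window the median log2 difference between KO and WT was -0.09, with 7 genes higher in KO and 12 lower, and among the 8 genes without it 0.06, with 5 higher and 3 lower. Hk2 and Pdk3 are shown because their KO lenses lay below their WT lenses on the normalised scale. Ldha and Ldhb are shown as the partner subunits of lactate dehydrogenase whose values lay on opposite sides of 0. The windows are chr6:82774405-82774704 (minus strand), chrX:93832101-93832400 (minus strand), chr7:46845554-46845853 (plus strand) and chr6:142507908-142508207 (minus strand). Each is printed 5' to 3', and capitals mark every base of either motif on either strand.
Hk2: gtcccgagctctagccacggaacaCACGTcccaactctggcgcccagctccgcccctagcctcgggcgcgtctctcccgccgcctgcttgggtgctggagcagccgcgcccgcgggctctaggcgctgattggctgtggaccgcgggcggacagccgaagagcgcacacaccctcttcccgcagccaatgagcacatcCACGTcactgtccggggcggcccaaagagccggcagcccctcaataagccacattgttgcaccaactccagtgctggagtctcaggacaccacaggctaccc
Pdk3: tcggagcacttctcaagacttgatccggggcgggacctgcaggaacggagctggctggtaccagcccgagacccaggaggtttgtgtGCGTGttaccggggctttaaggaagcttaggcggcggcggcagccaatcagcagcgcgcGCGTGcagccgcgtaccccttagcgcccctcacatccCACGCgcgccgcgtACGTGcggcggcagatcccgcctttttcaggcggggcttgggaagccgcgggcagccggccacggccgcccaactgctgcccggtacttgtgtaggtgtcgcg
Ldha: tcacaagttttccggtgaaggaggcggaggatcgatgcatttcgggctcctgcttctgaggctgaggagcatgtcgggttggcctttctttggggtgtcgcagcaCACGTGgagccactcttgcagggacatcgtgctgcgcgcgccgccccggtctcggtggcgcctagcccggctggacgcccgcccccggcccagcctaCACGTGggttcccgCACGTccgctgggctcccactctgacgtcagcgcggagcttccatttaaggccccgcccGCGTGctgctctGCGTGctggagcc
Ldhb: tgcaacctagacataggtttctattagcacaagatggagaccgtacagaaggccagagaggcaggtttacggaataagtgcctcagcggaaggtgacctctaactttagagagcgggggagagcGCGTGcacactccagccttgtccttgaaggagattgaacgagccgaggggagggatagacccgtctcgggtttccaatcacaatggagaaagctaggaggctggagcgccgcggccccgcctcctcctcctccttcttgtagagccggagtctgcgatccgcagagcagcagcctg
The Hk2 window holds 2 matches to ACGTG, that of Pdk3 holds 1 to ACGTG and 3 to GCGTG, and that of Ldhb holds 1 to GCGTG only. The Ldha window has 5 matches to ACGTG, the most of any of the 27 genes, and 2 to GCGTG.

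Glucose enters the cell through the facilitative transporters Slc2a1 (GLUT1) and Slc2a3 (GLUT3). Slc2a3 signals were 1181 in 1L, 772 in 1R, 667 in 4L and 599 in 7L, and 418 in 2L, 139 in 5L and 211 in 6L. All 4 KO lenses lay above all 3 WT lenses, which was so, in that direction, for 2.56% of all probe sets. On the normalised log2 scale the Slc2a3 level of KO animals was 9.54 ± 0.35 and that of WT animals 7.98 ± 0.65 (SD, n = 3). The log2 difference was 1.56 (SE 0.36), a 2.94-fold difference, with an unadjusted p of 0.00147 in limma and an adjusted p of 0.99988, so it did not pass. The next brightest Slc2a3 probe set gave 491, 451, 254 and 308 in the lenses 1L, 1R, 4L and 7L and 143, 138 and 138 in 2L, 5L and 6L. There too the lenses did not overlap, and the log2 difference was 1.11 (SE 0.31, limma unadjusted p = 0.00502, adjusted p = 0.99988). The other 2 Slc2a3 probe sets stayed under the highest bacterial control throughout, and with all 4 probe sets averaged the log2 difference was 0.70. Both bright probe sets have suffixes that the array maker gives to probe sets whose probes can match more than 1 transcript.

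Slc2a3 is best known as the glucose transporter of neurons and is also made by leukocytes, and several marker lists of other cells had mostly higher values in KO, while others had mostly lower ones. Of 9 neuron markers, 9 had higher values in KO, 2 of them with an unadjusted p under 0.05 in limma, with signals summing to 6541 to 9494 in KO lenses and 4132 to 8315 in WT ones. Nefl, a neurofilament subunit, ranged from 498 to 1102 in KO lenses and reached at most 462 in WT. Of 7 markers of Mueller glia and astrocytes, 6 had higher values, 4 of them with such a p, with sums of 34920.2 to 39647 against 31378 to 33418. Most of these sums is Vim, a filament gene that lens epithelium also expresses, at 19647 to 24166 in KO lenses and 22574 to 25986 in WT ones. Gfap, a filament of glia, ranged from 3858 to 7081 in KO lenses and reached at most 2432 in WT. Of 9 macrophage and leukocyte markers, 7 had higher values, 3 of them with such a p, with sums of 1453 to 2459 against 621 to 1362. Of the 2 with lower values, Aif1 had such a p too (log2 difference -0.80, limma unadjusted p = 0.0161). Its signals were at most 25.0, under the highest bacterial control. Ptprc, which marks leukocytes, ranged from 44.3 to 97.1 in KO lenses and from 41.4 to 52.5 in WT, near the highest bacterial control. Of 8 red cell and endothelial markers, 8 had higher values in KO (sums 703 to 1110.4 against 403 to 725), 2 of them with such a p. The 8 include Pecam1 and the haemoglobin gene Hba-a1, which did not reach that control in any lens. Other lists had mostly lower values in KO: 5 of 6 corneal epithelial markers (median -1.38, 2 of the 5 with an unadjusted p under 0.05 in limma), 5 of 7 stromal markers (median -0.27, 1 with such a p), 6 of 9 photoreceptor markers (median -0.06, 1 with such a p) and 7 of 10 muscle markers (median -0.26, none). Upk1b, a uroplakin gene on the corneal list that is named after its values were seen, gave 303 to 604 in KO lenses, all below the WT range of 703 to 1418 (log2 difference -1.37, limma adjusted p = 0.918). Of 8 pigment epithelium and melanocyte markers, 5 had higher and 3 lower values in KO (median 0.64). In each direction 1 of them had an unadjusted p under 0.05 in limma. Their sums ran from 14445.5 to 43153 in KO lenses and from 8013 to 24011 in WT ones. No member of these lists passed the adjusted test, and their part in the Slc2a3 values was not tested.

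Slc2a1, the basal transporter, was at 23730.4 in 1L, 28802 in 1R, 30964 in 4L and 24195 in 7L, and at 16929 in 2L, 26818 in 5L and 28364 in 6L. The groups overlapped, with 2L the lowest lens in deposited signal. The log2 difference was 0.16 (SE 0.17, limma unadjusted p = 0.380). Its next brightest probe set gave -0.01 (SE 0.17).

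**Figure D2:**
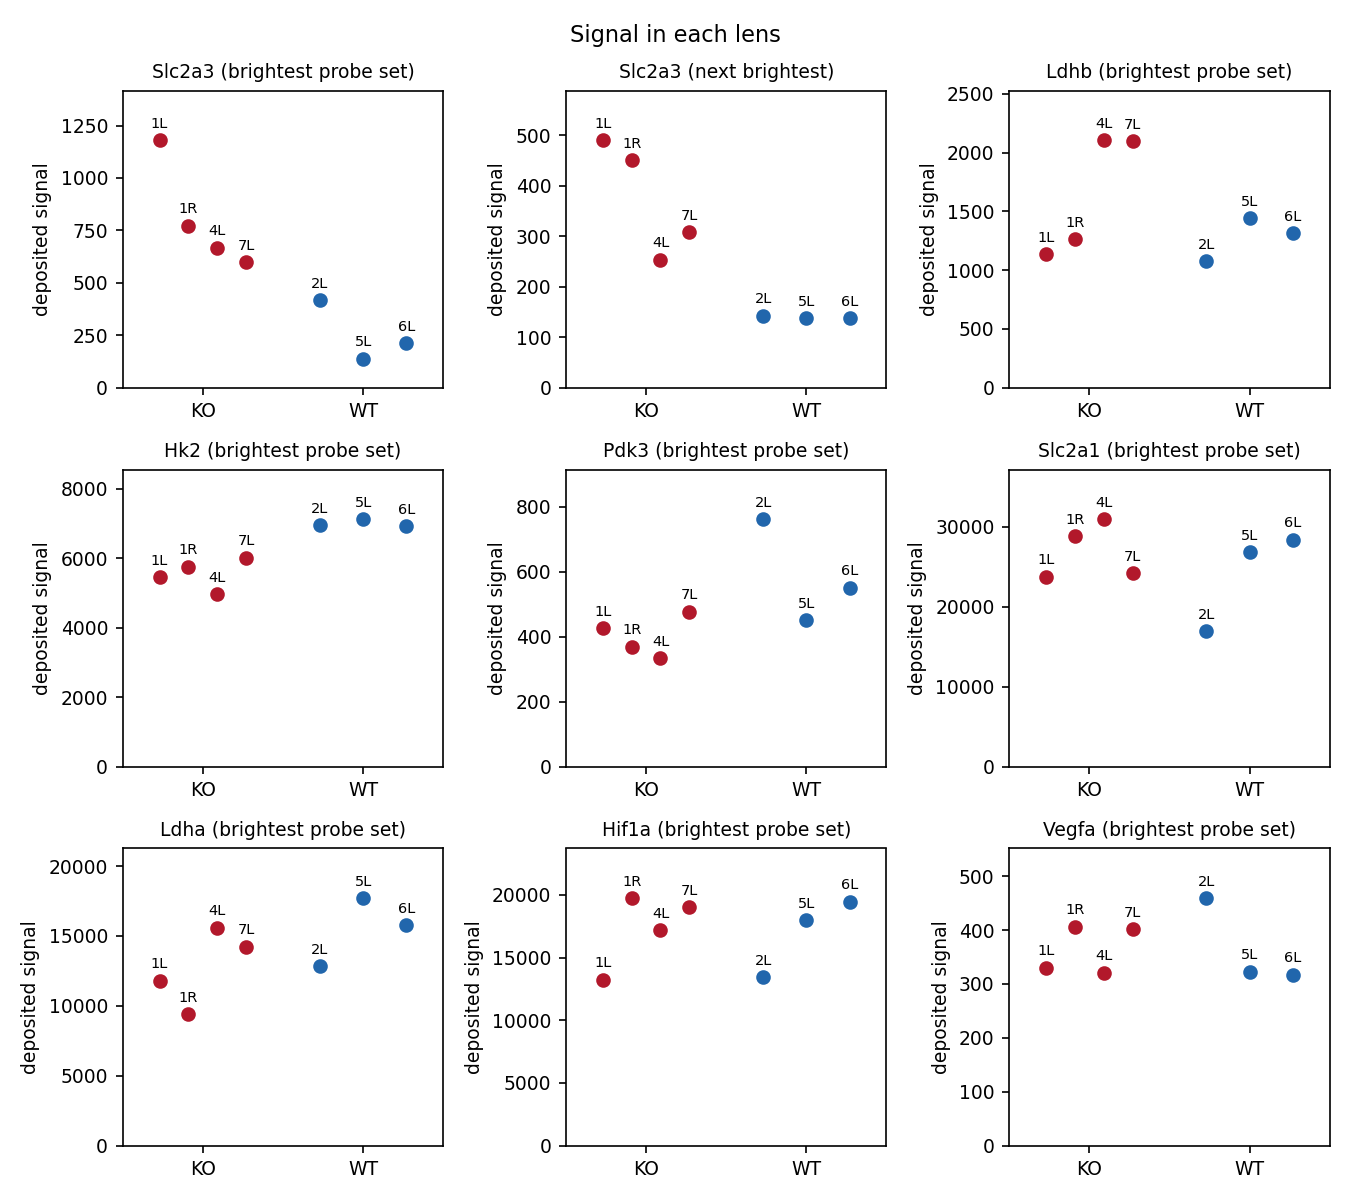
The deposited signal (vertical axis, linear, from 0) is shown for each lens, KO lenses in red and WT lenses in blue, in panels for both bright Slc2a3 probe sets and for the brightest probe sets of Ldhb, Hk2, Pdk3, Slc2a1, Ldha, Hif1a and Vegfa. KO lenses lie above WT lenses in both Slc2a3 panels and below them for Hk2. In the Pdk3 panel lens 7L (477) lies above 5L (451), and the groups overlap in the other panels too.

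Hexokinases trap glucose as glucose 6-phosphate, and phosphofructokinase commits it to glycolysis. Of the 6 genes measured at these steps, 2 had higher and 4 lower values in KO, and none passed the test in limma. Hk2, the inducible hexokinase bound to mitochondria, was at 5446 in 1L, 5749 in 1R, 4969 in 4L and 6018 in 7L, against 6942 in 2L, 7128 in 5L and 6921 in 6L. Every KO lens lay below every WT lens, which was so, in that direction, for 2.76% of all probe sets. The log2 difference was -0.35 (SE 0.19, limma unadjusted p = 0.0962), with an interval from -0.77 to 0.07 that includes 0. Hk1, the constitutive hexokinase, differed by 0.24 (SE 0.28). Among the phosphofructokinase genes, the liver-type subunit Pfkl differed by -0.39 (SE 0.22), the muscle-type subunit Pfkm by -0.16 (SE 0.35) and the platelet-type subunit Pfkp by 0.35 (SE 0.22). Pfkfb3, which makes the activator of phosphofructokinase, differed by -0.12 (SE 0.24).

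Pfkl shows how far lenses of 1 animal could lie apart. Its signals were 5958 in 1L and 1970.4 in 1R, the highest and the lowest of the 7 lenses, and 4181 in 4L, 2434 in 7L, 3991 in 2L, 4654 in 5L and 4224 in 6L. The fold between the eyes of KO animal 1 was thus 3.02 in signal. For 23 of the 29 genes (79.3%) the log2 difference between 1L and 1R was larger in size than that between KO and WT animals, and this was so for 70.1% of all genes. The exceptions were Slc2a3, Hk2, Ldhb, Pdk1, Pdk3 and Bnip3. The median size was 0.32 between these lenses and 0.16 between genotypes, and 0.42 and 0.20 over all genes. The former is a difference of single lenses and the latter one of means of 3 animals, which vary less. The sizes are therefore not on equal terms, and a larger one between the eyes does not measure the genotype against them.

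**Figure D3:**
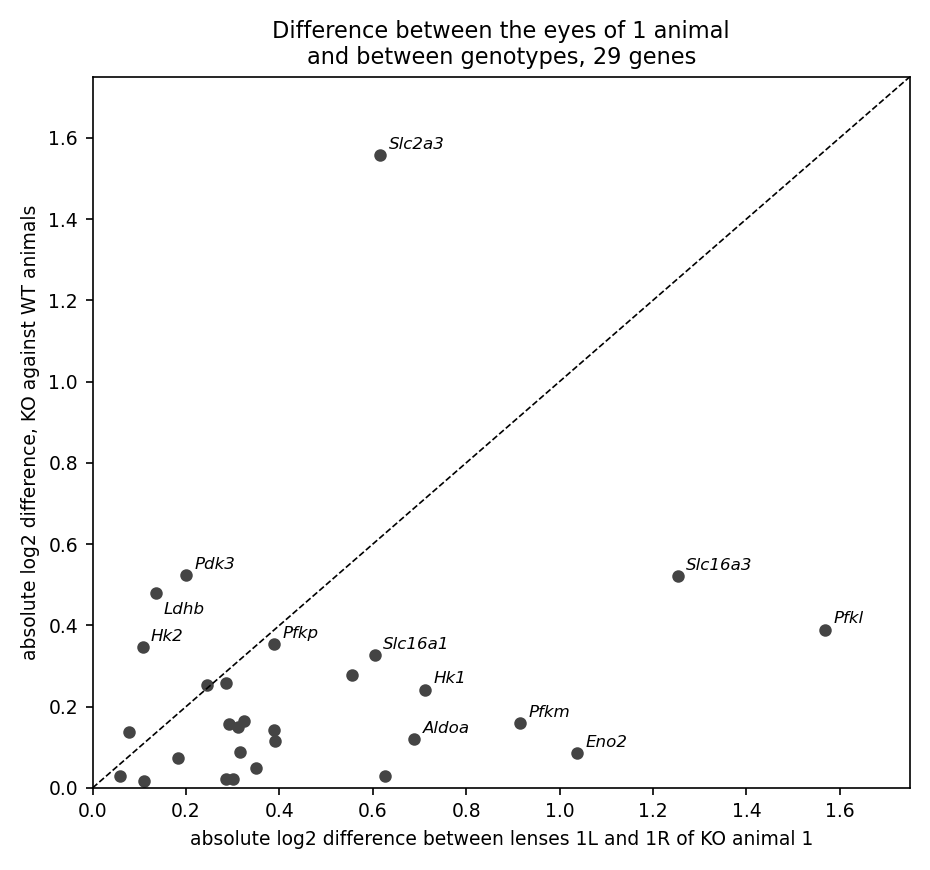
Each point is 1 of the 29 genes, with the absolute log2 difference between lenses 1L and 1R of KO animal 1 on the horizontal axis and that between KO and WT animals on the vertical axis, and the dashed line marks equality. For 23 genes the point lies below the line, Pfkl farthest to the right at 1.57, and Slc2a3 lies at 0.62 and 1.56.

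At the middle steps, from fructose bisphosphate to triose phosphates, 1 of 3 genes had higher and 2 lower values, and none passed in limma. Tpi1, triose phosphate isomerase, was at 16147 in 1L, 12183 in 1R, 18526 in 4L and 12367 in 7L, and at 14021 in 2L, 17599 in 5L and 15952 in 6L. The lenses overlapped throughout (log2 difference -0.15, SE 0.19, limma unadjusted p = 0.448). Aldoa, the main aldolase, differed by -0.12 (SE 0.18) and lay below 0 at each of its 5 probe sets, from -0.21 to -0.05. Each of the 5 has a suffix given to probe sets whose probes can match more than 1 transcript. Aldoc, the aldolase of brain, differed by 0.02 (SE 0.17) at its brightest probe set. Signals of its other probe set were 917 to 1243 in KO lenses, all above the WT range of 625 to 775 (log2 difference 0.54, limma unadjusted p = 0.0355, adjusted p = 0.99988).

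Lower glycolysis yields ATP and pyruvate. Pgk1, phosphoglycerate kinase, differed by 0.02 (SE 0.17), Pgam1, phosphoglycerate mutase, by 0.05 (SE 0.17) and Eno2, the neuronal enolase, by 0.08 (SE 0.26). Eno2 signals were 1185 in 1L, 579 in 1R, 621 in 4L and 584 in 7L, and 857 in 2L, 618 in 5L and 473 in 6L. Lens 1L alone stood above all WT lenses, and the other KO lenses lay among them. The next 2 Pgk1 probe sets by brightness differed by -0.26 (SE 0.17) and -0.23 (SE 0.18), so the sign for Pgk1 depends on the probe set. At the former every KO lens lay below every WT lens on the normalised scale (limma unadjusted p = 0.162, adjusted p = 0.99988). The brightest and the dimmest of the 3 have a suffix given to probe sets whose probes can match more than 1 transcript.

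Gapdh, glyceraldehyde phosphate dehydrogenase, was read from control probe sets at 3 places of its transcript, outside the fit. At the 3' end the signals were 27252 in 1L, 20810.1 in 1R, 28412 in 4L and 23203 in 7L, and 16998 in 2L, 29992 in 5L and 30739.6 in 6L. On the log2 scale the KO animals averaged 14.61 ± 0.16 and the WT animals 14.61 ± 0.48 (SD, n = 3), with p = 1 in an exact permutation test (two-sided). In the middle of the transcript the KO lenses lay between 2301 and 9109 and the WT lenses between 9178 and 11442. That log2 difference was -0.68, with an exact two-sided permutation p of 0.1, the smallest that 3 animals against 3 allow. At the 5' end the difference was -0.48 (exact permutation p = 0.3). These signals are as deposited, with a trimmed mean of 500.003 or 500.004 on every array, and are not quantile normalised. The 2L array, lowest at the 3' end, had a highest signal of 28328 against 42153 to 53056 on the others. Without WT animal 2 the differences were -0.28 at the 3' end, -0.62 in the middle and -0.21 at the 5' end, and without KO animal 1 the middle one was -0.34. The ratio of the 3' to the 5' signal ran from 9.88 to 15.9 in KO lenses and from 3.75 to 15.9 in WT ones (exact permutation p = 0.7).

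Pyruvate leaves glycolysis as lactate, made by lactate dehydrogenase and exported by monocarboxylate transporters, or enters mitochondria through pyruvate dehydrogenase, which the Pdk kinases inhibit. Of the 7 genes at this branch 3 had higher and 4 lower values in KO, and none passed in limma. Pdk3 was at 426 in 1L, 369.9 in 1R, 334 in 4L and 477 in 7L, and at 762 in 2L, 451 in 5L and 551 in 6L. On the normalised scale no KO lens reached a WT lens, although the deposited signal of 7L lay above that of 5L. The log2 difference was -0.52 (SE 0.26, limma unadjusted p = 0.0696). Pdk3, Pgk1 and Pdha1 lie on the X chromosome and 1 KO animal was male. Without that animal the Pdk3 difference was -0.64.

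Ldhb, the lactate dehydrogenase subunit of oxidative tissues, is singled out after its values were seen, because its 4 probe sets lay on the same side. The brightest gave 1134 in 1L, 1265 in 1R, 2107 in 4L and 2098 in 7L, and 1076 in 2L, 1440.1 in 5L and 1312 in 6L. Lenses 4L and 7L stood above all WT lenses and those of KO animal 1 among them (log2 difference 0.48, SE 0.27, limma unadjusted p = 0.108). The other probe sets differed by 0.40, 0.11 and 0.70, and at 2 of them every KO lens lay above every WT lens. All 4 have a suffix given to probe sets whose probes can match more than 1 transcript, _x_at at the brightest and next brightest and _a_at at the others. The dimmest of the 4 gave 1301 in 1L, 1474 in 1R, 1442 in 4L and 1844 in 7L, and 928 in 2L, 1036 in 5L and 919 in 6L (limma unadjusted p = 0.00751, adjusted p = 0.99988). Without KO animal 1 the difference at the brightest probe set was 0.75, and with array weights it was 0.19.

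Ldha, the subunit that favours lactate, was at 11811 in 1L, 9393 in 1R, 15589.5 in 4L and 14237 in 7L, and at 12834 in 2L, 17711 in 5L and 15770.2 in 6L. The ranges overlapped, with both lenses of KO animal 1 lowest (log2 difference -0.26, SE 0.21). Pdk1, a kinase that HIF-1 induces, differed by 0.14 (SE 0.28) at its brightest probe set and by -0.30 at the next. Pdha1, the alpha subunit of pyruvate dehydrogenase, differed by 0.03 (SE 0.33). The lactate transporters Slc16a1 (MCT1) and Slc16a3 (MCT4) differed by -0.33 (SE 0.29) and -0.52 (SE 0.41). Slc16a3 was weak, with 42.7 to 199 in KO lenses and 107 to 152 in WT ones, and its standard error was the largest of the 29.

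**Figure D4:**
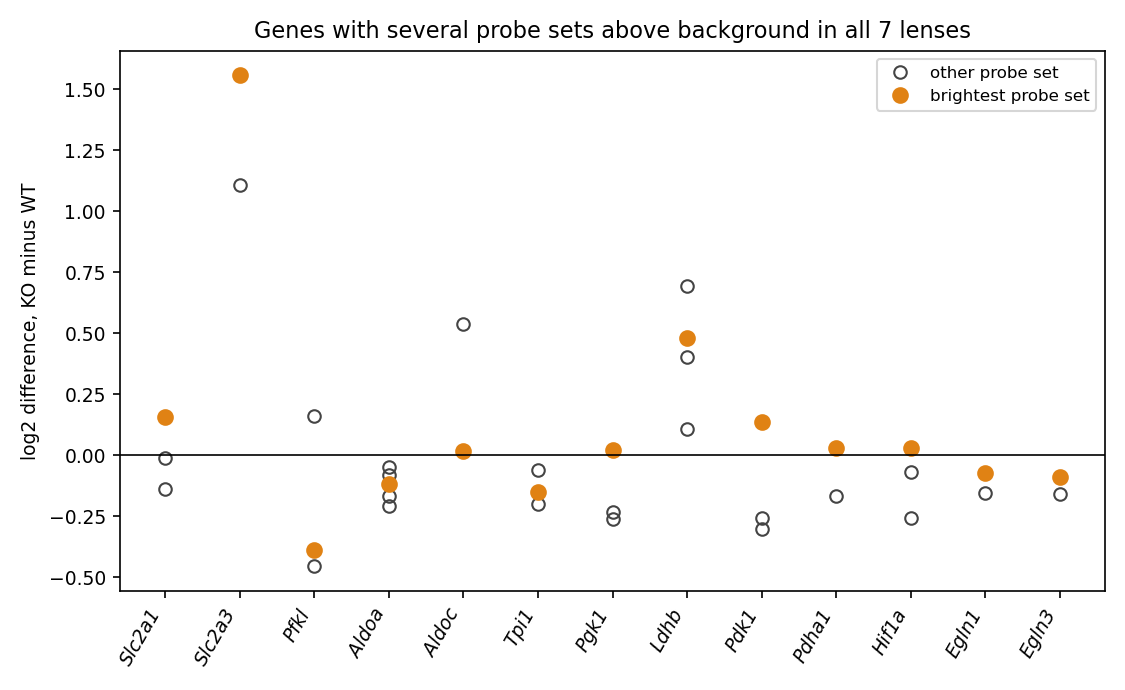
For the 13 genes with more than 1 probe set above the highest bacterial control in all 7 lenses, each probe set's log2 difference (KO minus WT, vertical axis) is shown, the brightest filled and the others open. For 7 genes all probe sets lie on the same side of 0, among them Slc2a3 (1.11 and 1.56) and Ldhb (0.11 to 0.70), and for 6 they lie on both sides.

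At their brightest probe sets the oxygen-sensing genes had differences smaller than their standard errors. Hif1a, which encodes HIF-1 alpha, was at 13234 in 1L, 19752 in 1R, 17188 in 4L and 19023 in 7L, and at 13422 in 2L, 17969 in 5L and 19459 in 6L. In deposited signal the lowest lens of each group lay at 13234 and 13422 and the rest between 17188 and 19752. On the normalised log2 scale 2L was the highest WT lens, at 14.12. There the WT lenses lay within the KO range of 13.64 to 14.42, so the groups overlapped on both scales. The log2 difference was 0.03 (SE 0.20, interval -0.41 to 0.47). The next 2 Hif1a probe sets by brightness differed by -0.07 (SE 0.22) and -0.26 (SE 0.36). The dimmest gave 40.7 to 85.8 in KO lenses and 20.7 to 36.5 in WT ones, all of the latter under the highest bacterial control. Its log2 difference was 0.82 (SE 0.36, limma unadjusted p = 0.0450, adjusted p = 0.99988). Epas1, which encodes HIF-2 alpha, differed by 0.14 (SE 0.37), and the prolyl hydroxylase genes Egln1 and Egln3 by -0.07 (SE 0.20) and -0.09 (SE 0.23). Egln3, itself a HIF target, was at 955, 1194, 1094 and 1397 in 1L, 1R, 4L and 7L, and at 1204, 1081 and 1566 in 2L, 5L and 6L, with no order between the groups.

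Of 4 genes known to be induced by hypoxia, 1 had higher and 3 lower values, and none passed in limma. Vegfa, the vascular growth factor, was at 330.2 in 1L, 406 in 1R, 321 in 4L and 401 in 7L, and at 459 in 2L, 323 in 5L and 317 in 6L. The log2 difference was -0.02 (SE 0.25, interval -0.58 to 0.53). Its dimmer probe set, with 14.8 to 98.6 in KO lenses and 63.0 to 188 in WT ones, gave -1.01 (SE 0.45, limma unadjusted p = 0.0496, adjusted p = 0.99988), with 1R under the highest bacterial control. Bnip3, a mitophagy receptor, was at 5819 in 1L, 4792 in 1R, 5577 in 4L and 6409 in 7L, and at 6744 in 2L, 6472 in 5L and 7344 in 6L. Its deposited signals did not overlap between the groups, but its normalised values did (log2 difference -0.25, SE 0.19). Ddit4, an inhibitor of mTORC1, ranged from 804 to 2173 in KO lenses and from 916 to 1607 in WT ones (difference 0.28, SE 0.37). Adm, the vasodilator adrenomedullin, was weak, with 71.5 to 96.2 in KO lenses and 64.8 to 136 in WT (difference -0.16, SE 0.39).

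Related genes were followed through 5 lists, of which no gene passed the adjusted test in limma. Of 12 measured genes of the polyol pathway and of osmolyte handling, 11 had lower values in KO and 1 a higher one, while 3 were higher without KO animal 1 and 2 without KO animal 4 or WT animal 2 or 5. Their median difference was -0.24 on the log2 scale. Khk, ketohexokinase, which phosphorylates fructose made by the pathway, gave 298 to 540.3 in KO lenses, all below the WT range of 546 to 676 (log2 difference -0.57, SE 0.27, limma unadjusted p = 0.0600). Aqp1, the water channel of lens epithelium, differed by -0.49 (SE 0.25), with signals of 1566 to 3170.4 in KO and 2821 to 3549 in WT. Slc6a20b had the smallest p of the list (-0.89, limma unadjusted p = 0.0243), but its signals were at most 44.6, under the highest bacterial control. Slc6a6, the taurine transporter, was the gene with a higher value (0.24, SE 0.23). Slc5a3, the inositol transporter, differed by -0.22 (SE 0.25). With the second brightest probe set, which 6 of the 12 genes have, the list's median was -0.02.

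Of 26 further glycolysis and gluconeogenesis genes, 8 had higher and 18 lower values (median -0.08), and 2 and 1 of these had an unadjusted p under 0.05. Hkdc1, a hexokinase relative, gave 108 to 127 in KO lenses and 10.3 to 50.5 in WT, where 2 of 3 lay under the highest bacterial control. Adpgk, an ADP-dependent glucokinase, gave 373 to 704 in KO lenses, all above the WT range of 286 to 343 (log2 difference 0.76, SE 0.28, limma unadjusted p = 0.0225). Fbp1, fructose bisphosphatase, gave at most 22.5, and was 1 of 6 genes of the 26 that reached the highest bacterial control in no lens. With weak probe sets dropped, 20 of the genes were left, 8 with higher and 12 with lower values. Of the 26, 12 had higher values in KO with the signals as deposited. Of 28 further hypoxia genes, 8 had higher and 20 lower values (median -0.07), and 12 were higher without KO animal 7 or WT animal 5. Stc1, the hormone stanniocalcin, gave 125 to 227 in KO lenses, all above the WT range of 10.4 to 106 (difference 1.55, SE 0.55, limma unadjusted p = 0.0191). Bhlhe40, a transcription repressor, differed by 0.44 (SE 0.27), and Vhl, which marks hydroxylated HIF for destruction, by -0.28 (SE 0.19).

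Of 13 genes of pyruvate entry and lactate transport, 4 had higher and 9 lower values (median -0.17), and without WT animal 2, 7 were higher and the median was 0.06. Without KO animal 7 or WT animal 6, 2 were higher. Bsg, the partner protein of the lactate transporters, differed by -0.59 (SE 0.29), Pdk2 by -0.70 (SE 0.34) and Pdp1, a pyruvate dehydrogenase phosphatase, by 0.56 (SE 0.31). As with Pfkl, Bsg was far apart in the lenses of KO animal 1, at 5304 in 1L and 1815 in 1R. Of 11 pentose phosphate genes, 4 had higher and 7 lower values (median -0.03), and 7 were higher without WT animal 5 and 6 without KO animal 1 or 4. H6pd, the dehydrogenase of the endoplasmic reticulum, differed by 0.42 (SE 0.28), while Tktl1 (-0.69) and Tktl2 (0.76) had signals near or under the highest bacterial control.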

How the data were processed

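Each of the 7 arrays held the RNA of the epithelium of 1 lens, and the animal was the unit (n = 3 per group). The deposited values are linear intensity values, 1 summary signal per probe set. Tested on the table, the mean after trimming 2% at each end was 500.003 or 500.004 on every array. The software behind these signals, with its background correction, was not given in the sources used here. Per the labels' protocols, RNA was amplified over a pair of cycles, which favours 3' ends.

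From the 45101 probe sets, 64 controls were left out. Signals were turned into log2(signal + 16), which understates the change of weak probe sets, and quantile normalised. Lenses 1L and 1R were averaged. KO and WT were compared in limma 3.58.1 (R 4.3.3; lmFit, eBayes with an intensity trend), two-sided, with Benjamini-Hochberg adjustment over 45037 probe sets. Code was tested on simulated data. Symbols came from the platform annotation (34945 probe sets with 1 symbol, 932 with several, 9160 with none). Per-lens signals are as deposited, and differences, overlap of lenses and means are on the normalised log2 scale.

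The genes and lists were chosen with earlier results of these data known. All listed genes are accounted for. Lens by lens values are given where the unadjusted p was under 0.05, where KO and WT lenses did not overlap, for the gene with the smallest p of each role, and for Gapdh, Slc2a1, Hif1a and Vegfa. Ldhb, Ldha and Pfkl were added after their values were seen. Of each related list up to 3 genes with the smallest p are named, and a few others for their role. The alternatives were the 7 lenses as independent samples, 1 lens of KO animal 1, median centring, no further normalisation, pseudocounts of 1 and 64, array weights, a fit without the trend, dropping weak probe sets, other probe sets of each gene, and leaving out each animal.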

Additional observations from a re-analysis of the deposited data

Results flagged for a closer look

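In 3 of the 29 genes 1 of the 4 KO lenses stood far from the others, with a gap to its nearest neighbour that was, as a share of the group's range, above Dixon's critical value for 4 samples. Chance gives such a lens in about 1 in 20 groups, and the lenses of KO animal 1 are not independent. Slc2a1 was at 14.46 on the normalised log2 scale in 1L, below the other KO lenses. Eno2 was at 10.24 in 1L, above the others. Pdha1 was at 11.17 in 4L, below the others.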

How the results depend on the processing

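No listed gene passed the adjusted test in limma under any of the 18 alternatives that could be run for it. The sign of 13 genes held, 8 of them under 18 alternatives and 5 (Hk2, Bnip3, Ldha, Pdk3, Slc16a3), which have 1 probe set, under 17. Of the 13, 4 were higher in KO (Slc2a3, Hk1, Pfkp, Ldhb) and 9 lower, and 16 genes changed sign at least once. The Slc2a3 difference ran from 1.25 to 1.90 without 1 animal each, with a lowest adjusted p of 0.365 over all alternatives (array weights). Precision is limited by 3 animals a group, and weak genes (Adm, Slc16a3) by background. No paired analysis was possible because KO and WT lenses share no replicate number.

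Genes at an unadjusted p under 0.05 numbered 1 of 29 as reported (4.06% of all features tested). They numbered 2 with median centring (4.2%), array weights (6.99%), the right lens of KO animal 1 alone (4.46%) or the mean of all probe sets (4.5%), and 3 of 20 with the second brightest probe set (3.64%). Without 1 animal each they numbered 1 to 3 (3 without KO animal 7, 1 without WT animal 5, otherwise 2), where 3.43% to 5.87% of all features had such a p. Genes higher in KO numbered 8 with median centring (median of all probe sets -0.07) and 6 of 20 with the second brightest probe set, against 14 of 29. Their median was -0.12 with the mean of all probe sets and -0.16 with the second brightest. Lenses did not overlap for 3 genes as reported (5.33% of all features), 5 with the right lens of KO animal 1 alone (9.29%), 7 with the mean of all probe sets (5.36%) and 3 to 6 without 1 animal each (9.83% to 16.5%), where fewer lenses leave more features without overlap. The cause was not tested.

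Differences that changed sign are given by alternative. With the 7 lenses as independent samples, the sign changed for Pgk1 (-0.0058) and Hif1a (-0.0045). With the left lens of KO animal 1 alone, the sign changed for Pgk1 (-0.025) and Hif1a (-0.074). With its right lens alone, the sign changed for Aldoc (-0.00095), Pgam1 (-0.0097), Eno2 (-0.088) and Vegfa (0.027). With median centring, the sign changed for Aldoc (-0.048), Pgk1 (-0.042), Pgam1 (-0.053), Eno2 (-0.0079), Pdha1 (-0.064) and Hif1a (-0.036). With no further normalisation, the sign changed for Vegfa (0.00055). With array weights, the sign changed for Pfkm (0.052), Aldoc (-0.022), Pgk1 (-0.035), Pgam1 (-0.014), Pdk1 (-0.11), Hif1a (-0.028), Egln1 (0.078) and Vegfa (0.0031). With the mean of all probe sets, the sign changed for Pgk1 (-0.16), Pdk1 (-0.26), Pdha1 (-0.069), Epas1 (-0.13) and Adm (0.30). With the second brightest probe set, the sign changed for Adm (0.76), Epas1 (-0.39), Hif1a (-0.068), Pdha1 (-0.17), Pdk1 (-0.30), Pgk1 (-0.26) and Slc2a1 (-0.013). Without 1 animal each, the differences ran from -0.091 to 0.25 for Eno2, -0.19 to 0.41 for Pdha1, -0.38 to 0.26 for Pfkm, -0.23 to 0.072 for Pfkfb3, -0.026 to 0.049 for Aldoc, -0.10 to 0.33 for Pdk1 and -0.18 to 0.051 for Egln1. They ran from -0.088 to 0.091 for Vegfa, -0.061 to 0.67 for Ddit4, -0.13 to 0.12 for Hif1a, -0.36 to 0.14 for Adm, -0.26 to 0.55 for Epas1, -0.19 to 0.081 for Egln3 and -0.048 to 0.079 for Pgk1.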
